A study of Mus musculus with 9 samples.

Results

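The 31 genes described here encode the machinery that burns fatty acids in mitochondria and peroxisomes. They were chosen by gene name from a table of 56748 genes, all 31 were found in it, and all 31 had a mean of at least 1 FPKM over the 9 libraries, the level needed to enter the tests. FPKM is the number of sequenced fragments per kilobase of gene, scaled to library size, so it can be compared between genes. Between libraries it also depends on the share of reads that other transcripts take, which differed here as given below. RNA came from whole hearts of mouse pups on postnatal day 1. The 3 groups of 3 libraries are wild type (WT), a whole body knockout of Cd36 (CD36KO) and a cardiac specific knockout of the same gene (CD36CKO). The CD36 protein sits in the cell membrane and brings long-chain fatty acids into the cell. The sources used here give no allele, driver of the cardiac knockout, strain or litter. It is not stated whether replicates came from separate animals, so the p-values cover the variation among these libraries alone, part or all of which may be technical. Whole-heart RNA mixes cell types, and fewer cells of a type cannot be told apart from less RNA per cell.

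Long-chain fatty acids are activated to acyl-CoA in the cytosol, carried across the mitochondrial membranes as carnitine esters, and shortened in repeated rounds of dehydrogenation, hydration, a further dehydrogenation and thiolysis. Electrons taken from the acyl-CoA dehydrogenases reach the respiratory chain through the electron transfer flavoprotein. Unsaturated chains need extra enzymes that move or remove double bonds, and peroxisomes shorten very long and branched chains. The heart is known for drawing most of its energy from this pathway in the adult, and for taking it up in the days after birth, when it turns away from glucose and lactate.

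Reads recovered from the FPKM values and gene lengths summed to 14409000 to 20725000 per library. Cd36 itself ran from 125 to 163 FPKM across WT and from 60.6 to 72.4 across CD36KO (limma adjusted p = 0.00345), and from 163 to 201 across the libraries labelled CD36CKO (limma adjusted p = 0.153 against WT), so its level did not bear out the second knockout label. WT 3 stood apart from WT 1 and WT 2 for the genes of interest, as described next. Skeletal muscle markers summed to 3607 FPKM in CD36CKO 3 and to 386 to 768 FPKM in the other 8 libraries. Most of each sum in those 8 was Ckm, at 340 to 644 FPKM. Mylpf and Tnnt3 were at 685 and 314 FPKM in CD36CKO 3, and at 0.923 to 3.21 and 0.527 to 3.32 FPKM in the other 8. The Y-linked gene Ddx3y was expressed in CD36KO 3 and CD36CKO 3, at 9.72 and 6.19 FPKM. The X-linked gene Xist was at 0.317 and 0.16 FPKM in these libraries and at 12.3 to 25.8 FPKM in all others. By these genes, CD36KO 3 and CD36CKO 3 read as male and all WT libraries as female, so sex was not balanced between groups. Mitochondrially encoded transcripts took 4.55% to 8.89% of reads across WT, 11.1% to 14.3% across CD36KO and 10.3% to 12.2% across the libraries labelled CD36CKO. Counts with these transcripts removed and each library rescaled stand beside the main counts. Cardiomyocyte genes were abundant in all libraries, with Myh6 at 2035 to 3593 FPKM. Brown fat was checked because it shares this pathway. Its 10 listed markers summed to 504 to 858 FPKM across WT, 865 to 1240 across CD36KO and 514 to 542 across the libraries labelled CD36CKO, with 0 of 4 tested markers past the limma test against WT. Most of each sum was Cox8b, at 370 to 661 FPKM across WT, 657 to 1034 across CD36KO and 287 to 324 across the libraries labelled CD36CKO. Fabp4 lay at 108 to 184 FPKM over all libraries and Ppargc1a at 8.82 to 17.9. Ucp1, Adipoq, Plin1 and Otop1 did not exceed 0.118, 0.0789, 0.107 and 0.0577 FPKM in any library, and Elovl3 and Dio2 did not exceed 0.242 and 0.961. Cidea, also on that list, was at 12.4 to 28.7 FPKM across WT and 29.8 to 36.5 FPKM across the other 6 libraries. Liver, another tissue rich in this pathway, was checked with 8 markers, which summed to 15.3 to 29.5 FPKM across WT, 3.88 to 40.9 across CD36KO and 5.91 to 11.5 across the libraries labelled CD36CKO. Among them Alb was at 2.26, 5.35 and 2.82 FPKM in WT 1 to 3 and 8.51, 0.0548 and 0.0745 across CD36KO 1 to 3. In the libraries labelled CD36CKO it was at 0 to 0.127 FPKM.

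In WT the oxidation genes spanned a wide range of levels. Acaa2, the mitochondrial thiolase, led at 579 ± 207 FPKM (SD, n = 3), and Acadl, the long-chain acyl-CoA dehydrogenase, followed at 419 ± 72.8. In all, 8 genes lay at 100 FPKM or more, 17 between 20 and 100, and 6 under 10. The 6 low genes were Slc22a5 (6.69 FPKM), which imports carnitine into the cell, Acad9 (4.61), which also helps assemble respiratory complex I, the peroxisomal bifunctional enzyme Ehhadh (2.6), Acad11 (1.88), Cpt1b (1.28) and Acad10 (1.15). The place of Cpt1b among them is uncertain, because 81.4% of its exon length is shared with another annotated gene of the same strand. Of the 30 pairs of neighbours in this order, 26 overlapped when values were compared across WT libraries. By this measure the order within the middle of the list is not resolved. It ignores that both genes of a pair were measured in the same library. Acaa2 lay above Acadl within each WT library, for example, while Acads and Hadha changed places between WT libraries. A pair without overlap was Acadl and Acot13, an acyl-CoA thioesterase that was next at 238 FPKM, with all WT libraries of Acadl above those of Acot13.

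**Figure D1:**
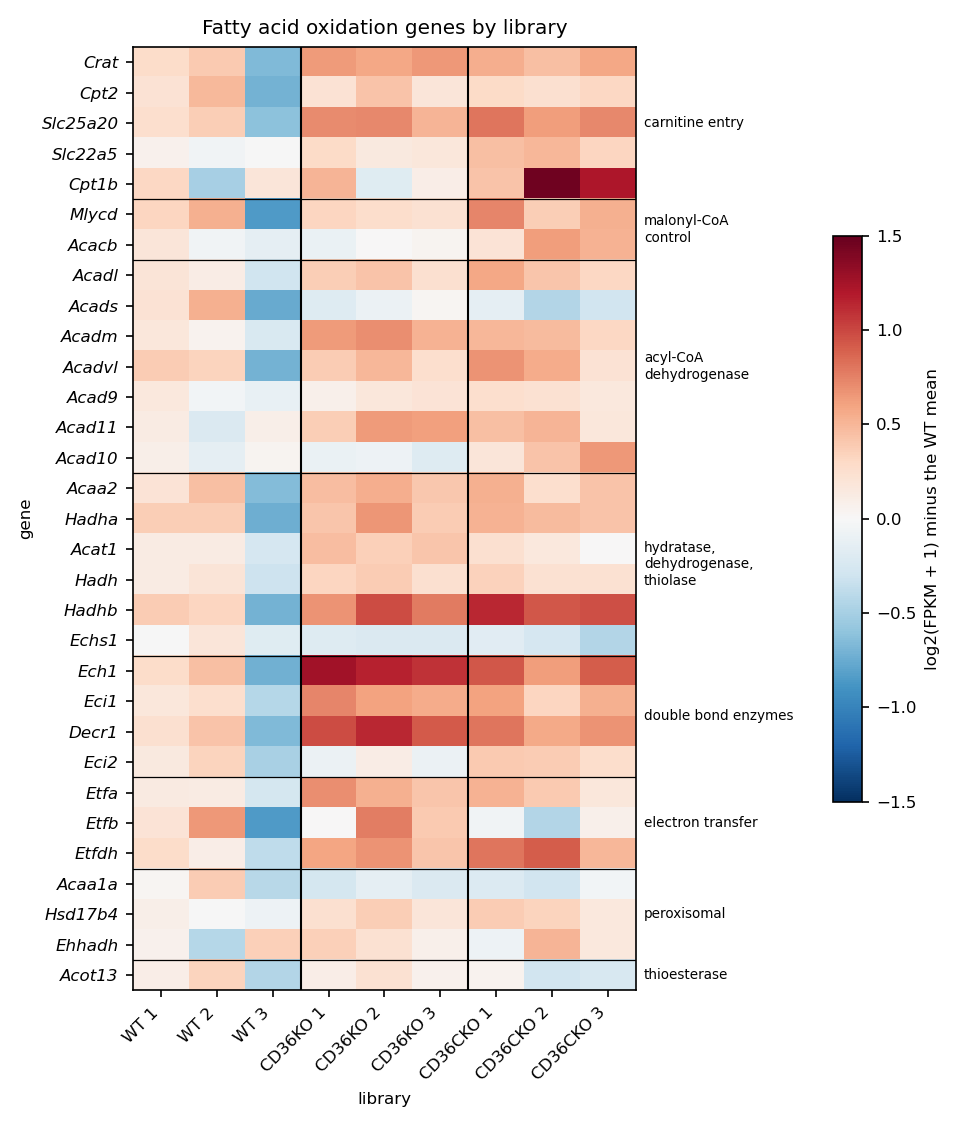
Each row is an oxidation gene and each column a library; colour gives log2(FPKM + 1) minus that gene's WT mean, with red above and blue below it, and black lines separate genotypes and functional groups. WT 3 is blue in most rows, while Ech1, Decr1 and Hadhb are red in all 6 libraries of the other genotypes.

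The summed level of the 31 genes was 3053, 3303 and 1870 FPKM in WT 1 to 3, 3644, 3817 and 3461 across CD36KO 1 to 3, and 3733, 3267 and 3342 across CD36CKO 1 to 3. All 3 CD36KO libraries lay above all 3 WT libraries, while CD36CKO 2 lay below WT 2. WT 3 held the lowest value of the 9 libraries for 25 of the 31 genes, against 16.5% of all tested genes. Relative to the mean of WT 1 and WT 2, its level was 63.9% at the median gene, 40.1% for Mlycd at the low end and 164% for Ehhadh at the high end. The median SD of an oxidation gene on the log2 scale was 0.40 in WT, 0.10 in CD36KO and 0.14 in the libraries labelled CD36CKO, beside 0.21, 0.11 and 0.14 for all tested genes. The WT spread of these genes was therefore the widest, and the values without WT 3 stand beside the counts that rest on it.

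In CD36KO, 4 of the 31 oxidation genes rose against WT and 0 fell, where 5.81% of all tested genes rose and 6.7% fell (limma adjusted p under 0.05). The genes that rose were Ech1 and Decr1, which handle unsaturated chains, the medium-chain dehydrogenase Acadm, and Acad11, a dehydrogenase known for very long chains. The median log2 difference of the 31 genes was 0.35, against -0.01 over all tested genes, and 25 of the 31 lay above 0. Without WT 3 the median of the 31 was 0.20, with 21 above 0. The CD36KO libraries lay wholly above WT for 16 genes and wholly below for 1, Echs1, where the shares of all tested genes were 17.4% and 17.8%. At an unadjusted p under 0.05, 12 of the 31 differed, against 30.7% of all tested genes.

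Ech1 encodes an isomerase that shifts paired double bonds during the breakdown of unsaturated fatty acids (chromosome 7, 28524642 to 28531672 in the deposited table, whose build is not stated). The other called genes lie on chromosomes 4 (Decr1), 3 (Acadm and Etfdh), 9 (Acad11), 5 (Hadhb) and 11 (Slc22a5). It was found at 169, 192 and 84.3 FPKM in WT 1 to 3, 337, 313 and 298 across CD36KO 1 to 3, and 269, 217 and 263 across CD36CKO 1 to 3. Every library of either other genotype exceeded every WT library. The log2 difference was 1.17 ± 0.27 (SE; limma adjusted p = 0.0258) for CD36KO and 0.82 ± 0.27 (limma adjusted p = 0.072) for the libraries labelled CD36CKO. Without WT 3 the CD36KO difference was 0.80 (limma adjusted p = 0.00691).

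Decr1 encodes the dienoyl-CoA reductase that removes 1 of a pair of double bonds. It stood at 39.5, 45.2 and 20.7 FPKM in WT, 66.6, 74.1 and 63.8 across CD36KO, and 58.8, 50.03 and 53.7 across the libraries labelled CD36CKO. The 3 genotypes did not overlap, with CD36KO highest and WT lowest. The difference from WT was 1.01 ± 0.24 on the log2 scale in CD36KO (limma adjusted p = 0.029), and 0.67 (limma adjusted p = 0.00757) without WT 3. The other 2 double bond genes were the isomerases Eci1, with a CD36KO difference of 0.63 ± 0.18 (limma adjusted p = 0.051), and Eci2, with -0.02 ± 0.19.

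Acadm, the medium-chain acyl-CoA dehydrogenase, was at 101, 93.7 and 76.5 FPKM in WT, 140, 147 and 129 across CD36KO, and 127, 126 and 111 across the libraries labelled CD36CKO. The genotypes again did not overlap and kept the order of Decr1. The CD36KO difference was 0.62 ± 0.14 (limma adjusted p = 0.0225). The 250 bases before its start are shown because Acadm was the only called gene with a matched promoter that held the nuclear receptor motif AGGTCA. They come from RefSeq on build GRCm38.p6, minus strand, chr3:153944644-153944893, and capitals mark AGGTCA read on the opposite strand, at the outer end of the window.
Acadm: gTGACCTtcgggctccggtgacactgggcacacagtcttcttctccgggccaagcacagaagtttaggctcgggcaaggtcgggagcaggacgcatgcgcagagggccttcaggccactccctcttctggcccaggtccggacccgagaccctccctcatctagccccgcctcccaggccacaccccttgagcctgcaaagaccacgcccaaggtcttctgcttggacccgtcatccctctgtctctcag

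RefSeq promoters, 250 bases before to 50 after the start, were matched for 23 of the 31 genes and searched on both strands. The motif AGGTCA was in 4 of them (Acadm, Acacb, Acadvl and Echs1), which is 17.4%, and in 16.3% of all 32851 promoters, so the share among oxidation genes was near that of all genes. The direct repeat of AGGTCA with 1 base of any kind between the copies, the form that PPAR and RXR receptors bind, was in 0 of 23 and in 0.0396% of all promoters. TCAAGGTCA, which estrogen-related receptors bind and which contains AGGTCA, was in 0 of 23 and in 0.423% of all. A match is a description of the letters in this window and not of binding.

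Acad11 was at 2.13, 1.47 and 2.06 FPKM in WT, 2.70, 3.48 and 3.39 across CD36KO, and 2.91, 3.10 and 2.22 across the libraries labelled CD36CKO. All 6 libraries of the other groups lay above WT, at low levels that rested on 257 to 712 reads per library. Its CD36KO difference was 0.54 ± 0.14 (limma adjusted p = 0.037). Among the other dehydrogenases, Acadl, Acadvl and Acad9 had CD36KO differences of 0.35, 0.38 and 0.15, while Acads, the short-chain enzyme, had -0.08 and Acad10 -0.12, and none of the 5 passed the test.

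**Figure D2:**
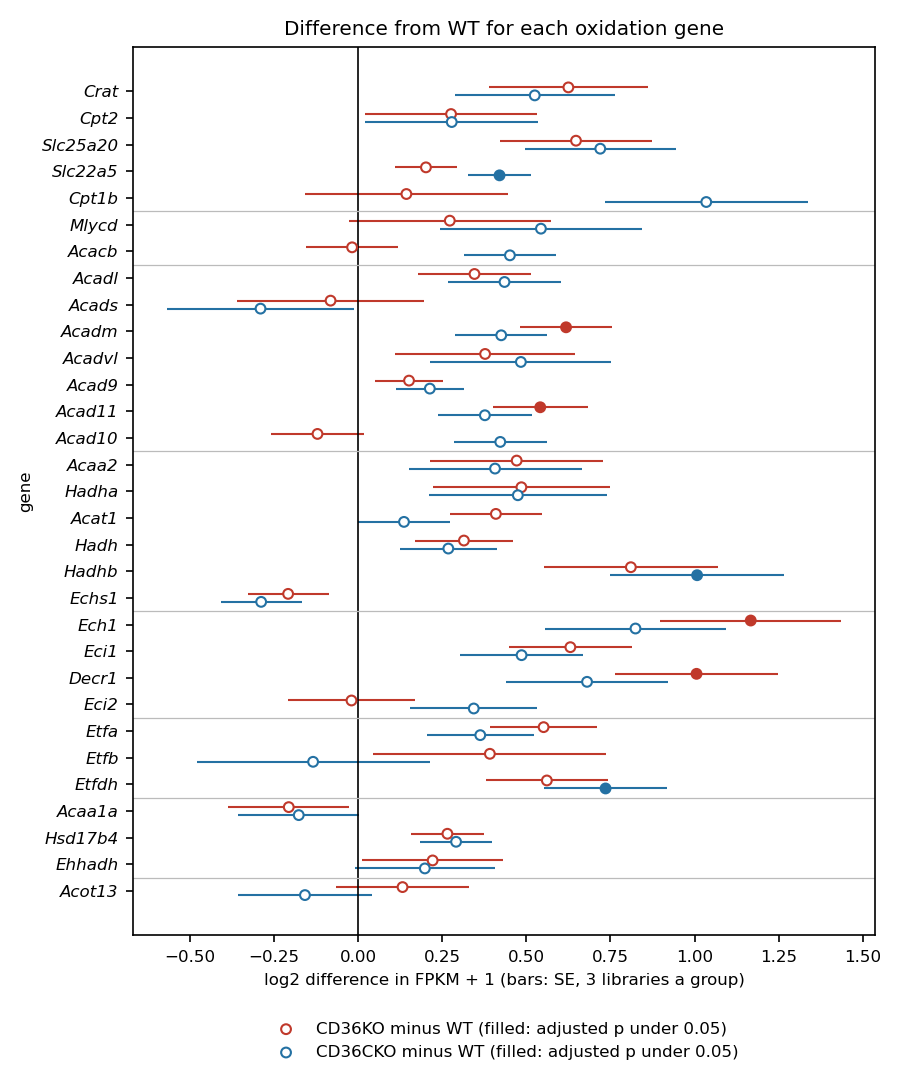
Points give the log2 difference in FPKM + 1 from WT for each oxidation gene, in red for CD36KO and blue for the libraries labelled CD36CKO; bars are the standard error, and filled points have a limma adjusted p under 0.05. Most points lie right of 0, with 4 filled in red (Ech1, Decr1, Acadm, Acad11) and 3 in blue (Hadhb, Etfdh, Slc22a5).

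None of the 4 CD36KO calls held when any 1 of the CD36KO libraries was left out, with limma adjusted p from 0.0622 to 0.122 over these 3 fits, and Acad11 was also lost without WT 1, WT 2, CD36CKO 1 or CD36CKO 2 (limma adjusted p from 0.0516 to 0.0945). All 4 were also lost without both libraries that expressed Ddx3y (limma adjusted p from 0.0863 to 0.125). Calls over all 12206 tested genes fell as well, from 1527 to 405, 596 and 405 without CD36KO 1, CD36KO 2 and CD36KO 3. They fell to 200 without both libraries that expressed Ddx3y, so these losses are not particular to the 4 genes. Without WT 3, 8 of the 31 oxidation genes rose and 2 fell (Acads and Acaa1a), against 11.8% and 14.4% of all tested genes, and with mitochondrial and haemoglobin transcripts removed, 13 rose and 0 fell, against 5.84% and 2.63%.

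In the libraries labelled CD36CKO, 3 of the 31 genes rose against WT and 0 fell, where 5.36% of all tested genes rose and 7.32% fell (limma adjusted p under 0.05). These were Hadhb of the mitochondrial trifunctional protein, Etfdh of the electron transfer chain, and the carnitine importer Slc22a5. The median log2 difference was 0.42, against 0.00 over all tested genes, with 26 of 31 above 0. Without WT 3 the median of the 31 was 0.23, with 25 above 0. The libraries lay wholly above WT for 18 genes and wholly below for 0, beside 15.7% and 17% of all tested genes. At an unadjusted p under 0.05, 16 of the 31 differed, against 32.5% of all tested genes. WT libraries are shared with the CD36KO comparison, so a like direction in both is not independent.

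Entry of fatty acids into mitochondria involves 5 of the genes. Slc22a5, the plasma membrane carnitine transporter, stood at 7.03, 6.41 and 6.64 FPKM in WT, 8.37, 7.54 and 7.63 across CD36KO, and 9.48, 9.83 and 8.59 across the libraries labelled CD36CKO. The groups followed that order without overlap, and the CD36CKO difference was 0.42 ± 0.09 (limma adjusted p = 0.022), beside 0.20 ± 0.09 (limma adjusted p = 0.176) for CD36KO. Slc25a20, the carrier that exchanges acylcarnitine for carnitine across the inner membrane, was at 26.8, 29.1 and 14.2 FPKM in WT, 37.2, 37.3 and 32.2 across CD36KO, and 39.7, 35.1 and 37.6 across the libraries labelled CD36CKO. Both other groups lay above WT, with log2 differences of 0.65 ± 0.23 and 0.72 ± 0.23 that did not pass the test (limma adjusted p = 0.087 and 0.063). Crat, which moves short acyl groups onto carnitine, also had no overlap with WT in either group, at differences of 0.62 and 0.52.

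Cpt2, which turns acylcarnitine back into acyl-CoA inside the mitochondrion, was at 51.5, 62.3 and 26.5 FPKM in WT, 51.3, 59.5 and 50.1 across CD36KO, and 53.8, 52.0 and 55.0 across the libraries labelled CD36CKO. WT held both its highest and its lowest library. Cpt1b, the muscle form of the outer membrane enzyme that commits fatty acids to oxidation, was at 1.75, 0.564 and 1.52 FPKM in WT, 2.14, 0.951 and 1.38 across CD36KO, and 1.98, 5.10 and 4.13 across the libraries labelled CD36CKO. The last group lay above WT throughout, with a difference of 1.03 ± 0.30 that did not pass (limma adjusted p = 0.052). The exons of Cpt1b share 81.4% of their length with another annotated gene of the same strand, listed at a mean of 0.0011 FPKM. How reads that fit both genes were counted is not stated, so the level of Cpt1b is uncertain and may be too low. Cpt1a, the liver form of the enzyme, was higher throughout, at 14.1, 10.5 and 10.1 FPKM in WT, 15.3, 14.9 and 14.3 across CD36KO, and 18.2, 22.5 and 16.7 across the libraries labelled CD36CKO. It rose in the libraries labelled CD36CKO by 0.68 ± 0.15 (limma adjusted p = 0.0203). The ratio of Cpt1b to Cpt1a overlapped between all groups and averaged 0.109 in WT, 0.10 in CD36KO and 0.194 in the libraries labelled CD36CKO. Both this ratio and the lower level of Cpt1b beside Cpt1a carry the uncertainty in the count of Cpt1b.

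Malonyl-CoA blocks this entry step, and the heart makes it with Acacb and clears it with Mlycd. Acacb lay at 21.5 to 27.1 FPKM across WT, 22.1 to 24.4 across CD36KO and 27.5 to 37.1 across the libraries labelled CD36CKO. Its CD36CKO difference was 0.45 ± 0.14 (limma adjusted p = 0.057). Mlycd ran from 23.3 to 62.5 FPKM in WT alone, and WT overlapped with both other groups.

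Hadha and Hadhb encode the α and β subunits of the trifunctional protein, which hydrates, dehydrogenates and cleaves long chains. Hadhb was at 72.4, 69.3 and 33.3 FPKM in WT, 88.5, 110 and 95.7 across CD36KO, and 122, 106 and 109 across the libraries labelled CD36CKO. Hadha was at 132, 131 and 60.6 FPKM in WT, 136, 161 and 132 across CD36KO, and 147, 141 and 137 across the libraries labelled CD36CKO. Both genes had no overlap with WT in either group, but WT 1 and WT 2 came close to CD36KO for Hadha. Hadhb rose in the libraries labelled CD36CKO by 1.01 ± 0.26 (limma adjusted p = 0.0352; 0.65 and 0.0076 without WT 3), and its CD36KO difference was 0.81 ± 0.26 (limma adjusted p = 0.068). The differences of Hadha were 0.49 and 0.47, with a limma adjusted p of 0.246 and 0.24.

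The Hadha to Hadhb ratio was 1.82, 1.89 and 1.82 in WT, 1.54, 1.47 and 1.38 across CD36KO, and 1.20, 1.33 and 1.26 across the libraries labelled CD36CKO. The 3 groups did not overlap, and WT 3, low for both genes, lay with the other WT libraries on the ratio. On the log2 scale the ratio differed from WT by -0.33 in CD36KO and by -0.54 in the libraries labelled CD36CKO, and between these groups by 0.21. Each comparison gave p = 0.1 by a two-sided exact permutation test, the smallest that 3 against 3 allows, and 0.3 after adjustment over the 9 ratio comparisons, so none could pass. Leaving out each library in turn kept the differences from WT between -0.37 and -0.29 for CD36KO and between -0.58 and -0.51 for the libraries labelled CD36CKO.

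Hadha and Hadhb lie head to head on chromosome 5, in opposite directions, with annotated GENCODE starts 86 bases apart, and Hadhb lies 12.3 Mb from Cd36. The 85 bases between the starts are shown because both genes start at their edges, and were chosen after the values were seen. They come from RefSeq on build GRCm38.p6, plus strand, chr5:30155163-30155247, contain no annotated exon and have a GC content of 69.4%. Neither of these subunits' promoter windows held any of the motifs searched, so no base is in capitals.
Hadha-Hadhb interval: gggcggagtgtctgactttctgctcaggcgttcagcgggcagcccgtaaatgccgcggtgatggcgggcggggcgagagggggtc

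**Figure D3:**
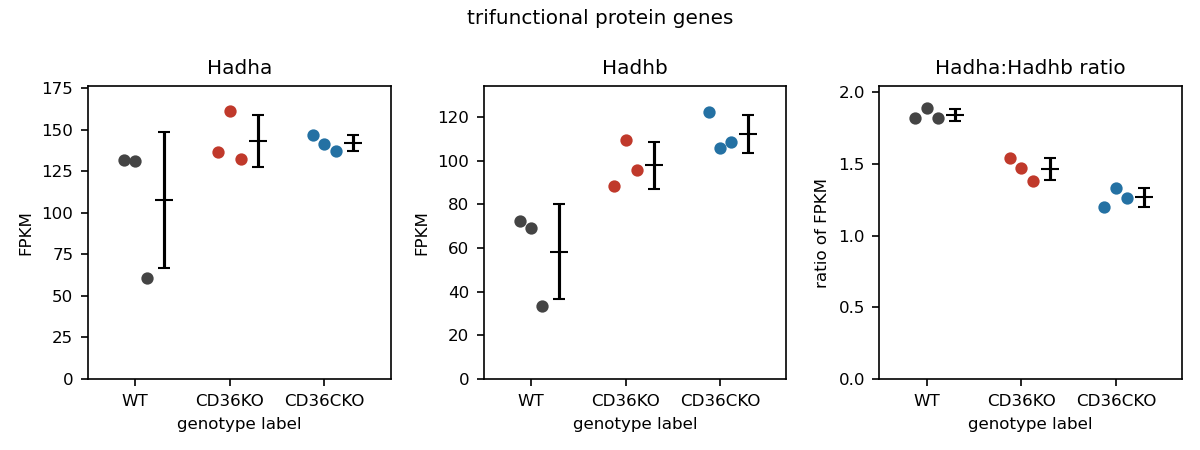
Dots are libraries, horizontal marks the mean and bars the SD of 3 libraries, for the FPKM of Hadha, the FPKM of Hadhb and the ratio between them. The ratio is near 1.84 in WT, 1.46 in CD36KO and 1.27 in the libraries labelled CD36CKO, with no overlap.

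Among the other enzymes of the shortening rounds, the libraries of both other genotypes lay above WT for the short-chain hydroxyacyl-CoA dehydrogenase Hadh, at 53.5 to 76.3 FPKM across WT, 78.7 to 87.2 across CD36KO and 78.2 to 85.3 across the libraries labelled CD36CKO. Echs1, the short-chain enoyl-CoA hydratase, went the other way, at 26.0 to 33.7 FPKM in WT and 25.2 to 25.7 in CD36KO. Neither passed the test in any comparison. The thiolase Acat1 separated CD36KO (111 to 120 FPKM) from both WT (73.0 to 95.2) and the libraries labelled CD36CKO (87.5 to 103), also without passing. Acaa2, the gene with the highest level, had differences of 0.47 and 0.41 and overlapped with WT in both comparisons.

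The electron transfer flavoprotein is built from the products of Etfa and Etfb, and Etfdh passes its electrons to ubiquinone. Etfdh was at 34.2, 30.1 and 21.2 FPKM in WT, 42.8, 45.2 and 37.5 across CD36KO, and 49.7, 53.3 and 39.7 across the libraries labelled CD36CKO. All 6 libraries of the other groups lay above WT, with differences of 0.56 ± 0.18 (limma adjusted p = 0.072) and 0.74 ± 0.18 (limma adjusted p = 0.031). Etfa was at 157, 155 and 119 FPKM in WT, 231, 207 and 191 across CD36KO, and 205, 188 and 160 across the libraries labelled CD36CKO. It also had no overlap with WT, and its CD36KO difference of 0.55 ± 0.16 just missed (limma adjusted p = 0.051). Etfb, at 84.7, 116 and 40.4 FPKM in WT, 73.9, 126 and 97.2 across CD36KO, and 71.2, 54.2 and 77.8 across the libraries labelled CD36CKO, overlapped between all groups. Its exons share 53.0% of their length with another gene of the same strand, which adds uncertainty to its count. The Etfa to Etfb ratio overlapped in every comparison, with an exact permutation p of 0.3 to 0.7.

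The 3 genes grouped here as peroxisomal, Hsd17b4, Acaa1a and Ehhadh, did not pass the test in the main setting. Genes grouped under other steps were not sorted by compartment. Hsd17b4, the peroxisomal bifunctional protein, was at 22.4 to 25.4 FPKM across WT, 27.1 to 31.05 across CD36KO and 26.7 to 31.3 across the libraries labelled CD36CKO, above WT throughout. Acaa1a, a peroxisomal thiolase with a near-identical copy whose reads may be split with it, had differences of -0.21 and -0.18, and was called lower in both comparisons without WT 3. Hsd17b4 was called higher in both under quantile normalization and with library weights. Ehhadh overlapped between groups. Acot13, the thioesterase, overlapped with WT in both comparisons.

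None of the 3 CD36CKO calls held without CD36CKO 1 or CD36CKO 2 (limma adjusted p from 0.0624 to 0.123), and 1 of them held without WT 2 (Hadhb) and without CD36KO 1 or CD36KO 2 (Slc22a5), which enter through the shared estimate of spread. Without CD36CKO 3, the library with skeletal muscle markers, Hadhb was lost (limma adjusted p = 0.0722), and without both libraries that expressed Ddx3y all 3 were (limma adjusted p from 0.0642 to 0.115). Calls over all tested genes also fell without both libraries that expressed Ddx3y, as given in the closing section, so that loss is not particular to these genes. Without WT 3, 7 of the 31 oxidation genes rose and 3 fell (Acads, Echs1 and Acaa1a), against 14.6% and 17.8% of all tested genes, and with mitochondrial and haemoglobin transcripts removed, 23 rose and 0 fell, against 13.3% and 3.35%.

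Between CD36KO and the libraries labelled CD36CKO, 0 of the 31 genes passed in limma, where 2.61% of all tested genes were higher and 1.93% lower in CD36KO. At an unadjusted p under 0.05 there were 4, against 21.9% of all tested genes. The median difference was 0.01 and the same over all genes was 0.00. CD36KO libraries lay wholly above for 6 genes (Acadm, Decr1, Ech1, Acot13, Crat and Acat1) and wholly below for 5 (Slc22a5, Acad10, Eci2, Mlycd and Acacb), beside 19.4% and 17.3% of all tested genes.

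Acad10, an acyl-CoA dehydrogenase with a phosphotransferase-like part, came closest. It was at 1.27, 0.958 and 1.21 FPKM in WT, 1.01, 1.04 and 0.872 across CD36KO, and 1.44, 1.88 and 2.38 across the libraries labelled CD36CKO. The libraries labelled CD36CKO lay above all others, and the log2 difference of CD36KO from them was -0.54 ± 0.14 (limma adjusted p = 0.057). It was called under quantile normalization, with library weights, in limma-voom on recovered reads, without WT 3 and without CD36CKO 1. Next were Acacb at -0.47 ± 0.14 (limma adjusted p = 0.083) and Cpt1b at -0.89 ± 0.30 (limma adjusted p = 0.125). The largest positive difference was 0.53 ± 0.35 for Etfb, whose groups overlapped.

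Because these enzymes are abundant in heart muscle cells, their summed level was set against 15 cardiomyocyte markers, a comparison added after the values were seen. The marker sums were 32407, 35398 and 20764 FPKM in WT 1 to 3, 27638, 24177 and 23715 across CD36KO 1 to 3, and 23583, 19747 and 19809 across CD36CKO 1 to 3. WT 3 held the lowest of the 3 WT sums, as it did for the oxidation genes, but not for every marker. Its Ryr2, Ttn, Atp2a2 and Ldb3 were at 22.2, 17.3, 653 and 111.4 FPKM, above WT 2 at 12.3, 8.79, 533 and 110.8. All other markers of the list were lowest in WT 3 among the WT libraries. For each 100 FPKM of markers, the oxidation genes held 9.42, 9.33 and 9.01 FPKM in WT, 13.2, 15.8 and 14.6 across CD36KO, and 15.8, 16.5 and 16.9 across the libraries labelled CD36CKO. The 3 WT libraries lay close together on this scale and below all 6 others.

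On the same scale, 18 of 31 genes lay wholly above WT in CD36KO, against 13.7% of all tested genes, and 26 of 31 in the libraries labelled CD36CKO, against 26.5%. Wholly below WT were 0 of 31 in both, against 5.78% and 2.97% of all tested genes. Set against the libraries labelled CD36CKO, CD36KO lay wholly below for 16 of 31 and wholly above for 0, where the shares of all tested genes were 35.7% and 4.23%. When each marker gene served as the denominator alone, the summed oxidation level of CD36KO lay wholly above WT for 8 of the 15, wholly below for 1, and overlapped for 6. For the libraries labelled CD36CKO these counts were 10, 0 and 5, so the separation depends on which marker is used. In limma on values scaled to the marker sum, 10 genes rose in CD36KO and 22 in the libraries labelled CD36CKO, where 1.25% and 10.9% of all tested genes rose, while the median of all tested genes itself moved to 0.14 and 0.36. Other heart markers also moved with genotype. Atrial markers summed to 4326 to 7039 FPKM across WT, 213 to 1446 across CD36KO and 719 to 2206 across the libraries labelled CD36CKO, with 9 and 5 of 11 lower by limma. Ventricular markers summed to 4389 to 10438 FPKM across WT, 8475 to 9361 across CD36KO and 5020 to 6140 across the libraries labelled CD36CKO, with 4 of 7 higher in both comparisons. Endothelial markers summed to 431 to 484, 443 to 500 and 358 to 393 FPKM in the same order, with 2 and 3 of 10 lower and 2 and 0 higher. The part of these markers in the oxidation results was not tested.

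**Figure D4:**
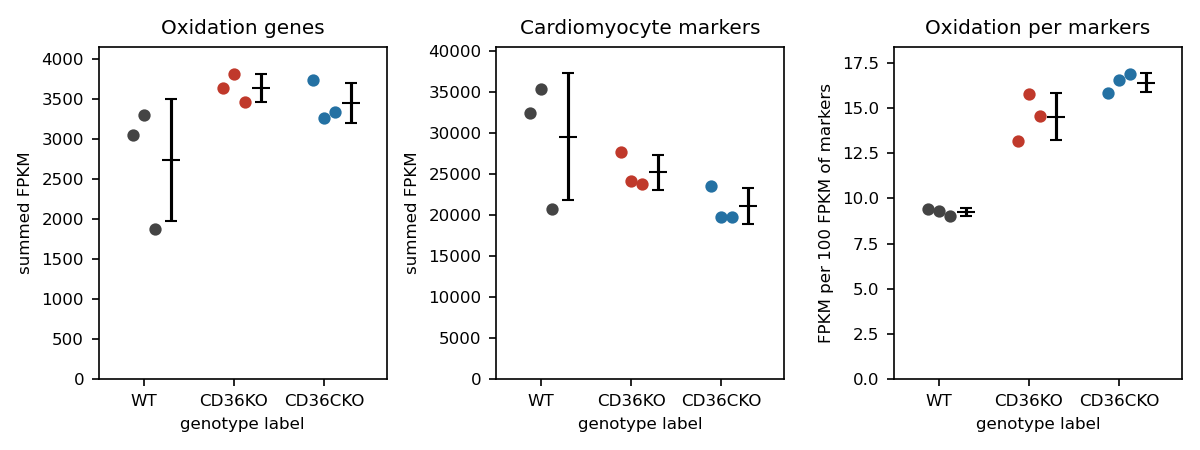
Dots are libraries, horizontal marks the mean and bars the SD of 3 libraries, for the summed FPKM of the 31 oxidation genes, the summed FPKM of 15 cardiomyocyte markers, and the first for each 100 FPKM of the second. WT 3 is low in the first and second panels but lies with WT 1 and WT 2 in the last, at 9.01 to 9.42.

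The wider pathway, 89 further genes that include those of fatty acid activation, peroxisomal import, thioesterases, branched-chain steps and regulators, was read in the same way, and 74 of them were expressed highly enough to test. In CD36KO 7 rose and 0 fell, beside 5.81% and 6.7% of all tested genes, and in the libraries labelled CD36CKO 13 rose and 3 fell, beside 5.36% and 7.32%. The medians were 0.11 and 0.17. Slc25a42, the mitochondrial carrier of coenzyme A, stood at 7.43, 5.62 and 5.77 FPKM in WT, 8.61, 6.95 and 6.48 across CD36KO, and 12.4, 16.5 and 13.4 across the libraries labelled CD36CKO. Every library of the last group lay above all others, while CD36KO overlapped with WT. The CD36CKO difference of Slc25a42 from WT was 1.05 ± 0.15 on the log2 scale (limma adjusted p = 0.00389), a call that held in all 19 alternatives. Ucp3, a mitochondrial uncoupling protein homologue, was at 6.59, 8.52 and 1.22 FPKM in WT, 16.3, 11.7 and 9.94 across CD36KO, and 18.4, 22.6 and 29.5 across the libraries labelled CD36CKO. The 3 groups did not overlap, WT 3 was the lowest library and CD36CKO 3, which carried the skeletal muscle markers, the highest. The CD36CKO difference of Ucp3 was 2.15 ± 0.46 (limma adjusted p = 0.0205) and was not called without CD36CKO 2 or without CD36CKO 3.

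The CD36KO calls described here are Acad12 (0.69), the peroxisomal dienoyl-CoA reductase Decr2 (0.61), Echdc3 (0.56), the valine pathway hydrolase Hibch (0.53), the mitochondrial acetyl-CoA synthetase Acss1 (0.50) and the peroxisomal thiolase and sterol carrier Scp2 (0.49). In the libraries labelled CD36CKO, the rise covered, beside Slc25a42 and Ucp3, Acot2 (1.24), whose copy Acot1 makes its reads uncertain, the fatty acid transporter Slc27a1 (0.95), the acyl-CoA synthetase Acsl1 (0.85), Cpt1a, Mmut (0.52), Esrrg (0.45), the peroxisomal importer Abcd3 (0.43), the carnitine octanoyltransferase Crot (0.39) and Echdc2 (0.36). Genes that fell included the thioesterase Acot9 (-0.43) and the transcription factor Nrf1 (-0.38). All of the named genes passed with a limma adjusted p under 0.05, but all of them other than Slc25a42 were lost in at least 1 of the 19 alternatives. Slc25a42 was the 1 gene of the 74 that differed between CD36KO and the libraries labelled CD36CKO, at -0.85 ± 0.15 (limma adjusted p = 0.0158), a call that 6 of the 19 alternatives lost, those without CD36KO 2, CD36KO 3 or CD36CKO 2 among them. The count of 7 dropped to 1 without CD36KO 2, where limma calls over all 12206 tested genes also fell, from 1527 to 596. The count of 16 dropped to 2 without CD36CKO 2. The count over all tested genes in that fit is not reported here, so whether this drop is particular to these genes cannot be told. Without WT 3 the counts were 14 (11 higher and 3 lower) and 25. In the same comparisons 11.8% and 14.6% of all tested genes were higher, and 14.4% and 17.8% lower.

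Apart from Esrrg and Nrf1, no regulator in the list passed the test. Ppara, the receptor known for driving these genes in heart and liver, was at 0.991 to 1.73 FPKM across WT, 1.26 to 1.68 across CD36KO and 1.03 to 1.75 across the libraries labelled CD36CKO. Ppard, at 3.16 to 3.81, 2.74 to 3.16 and 2.70 to 4.18 FPKM in the same order, and Ppargc1a, at 8.82 to 12.8, 10.6 to 12.5 and 11.6 to 17.9 FPKM, had differences of -0.17 and 0.06 in CD36KO and of -0.02 and 0.37 in the libraries labelled CD36CKO, and did not pass either.

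**Figure D5:**
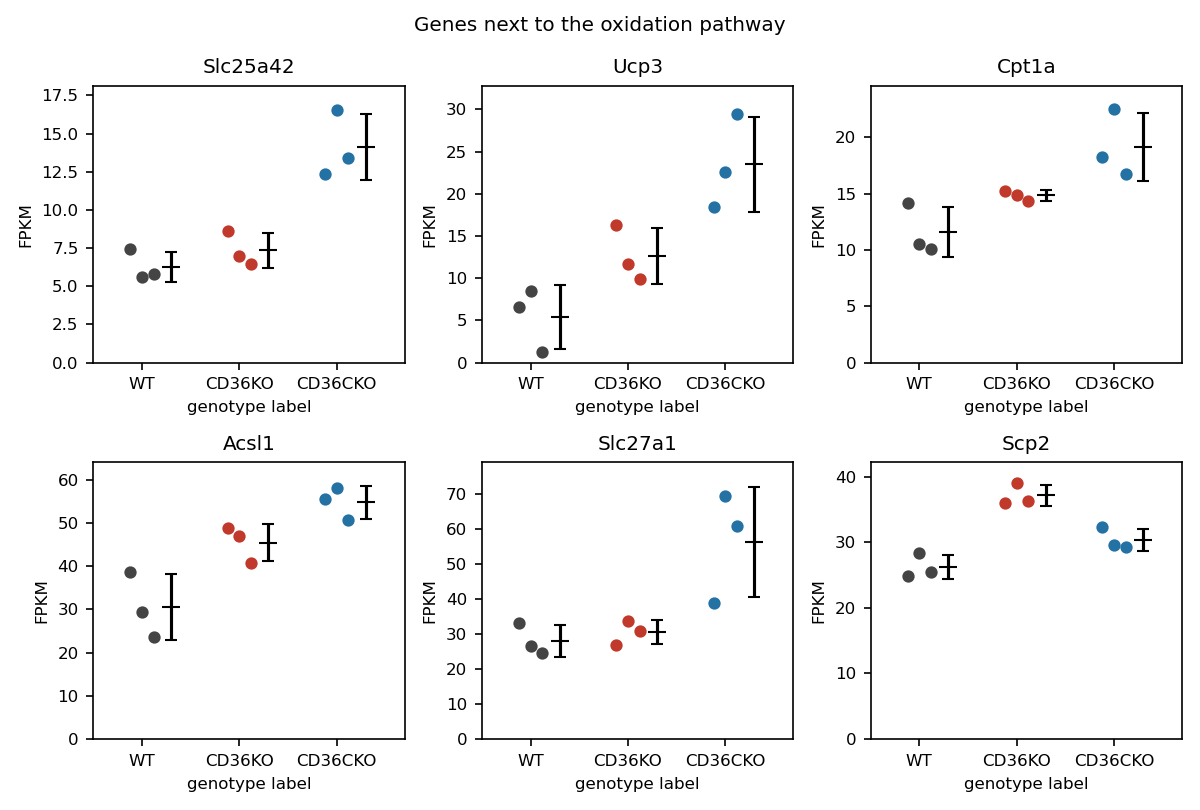
Dots are libraries, horizontal marks the mean and bars the SD of 3 libraries, in FPKM, for 6 genes beside the oxidation pathway. Ucp3 is at 1.22 to 8.52 FPKM in WT and at 9.94 or more elsewhere, and Slc25a42 is higher in the libraries labelled CD36CKO, at 12.4 to 16.5 FPKM, than in all others.

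The genes did not all move together across the 9 libraries. As a description, the Pearson correlation of each gene with the mean of the others ran from 0.98 for Slc25a20 to -0.23 for Echs1, with Ehhadh at -0.16 and Acad10 at 0.10 also near or below 0. The libraries share genotype and the low WT 3, which enter all of these values. Of 10772 other protein-coding genes, the 5 most like the mean of the 31 were Lrrc39 and Colec11 (r = 0.98 each), Tspan12 and Cidea (0.97 each) and Nudt6 (0.96). Cidea is also among the listed brown fat markers. Lrrc39, a sarcomere M-band protein, stood at 16.5, 16.3 and 8.11 FPKM in WT, 22.6, 23.1 and 20.8 across CD36KO, and 21.2, 22.7 and 21.7 across the libraries labelled CD36CKO, so it shared both the low WT 3 and the higher level in the 6 libraries outside WT.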

How the data were processed

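RNA-seq of 9 libraries from whole hearts of postnatal day 1 mouse pups was analysed from a table of FPKM values per gene that the authors deposited. The submitters' processing notes name CASAVA, HISAT2, HISAT and TopHat2, with neither version nor role. Libraries were directional (dUTP) and selected for poly-A RNA, per the labels' protocols. No source used here gives the read counter, its strand setting, the build or the annotation. Deposited gene lengths equal the exon unions of the GENCODE M21 annotation for 31 of 31 genes, but positions match GRCm38 for 1, so the deposited positions are on another build than the sequences. In that annotation 11 of the 31 genes share exon bases with another gene. Deposited gene length times FPKM gave whole reads for 100% of values within 0.05 reads. A count of 0 allows up to 3 reads (0.128 to 0.192 FPKM for a gene of 1 kb), a limit for counting error alone.

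limma 3.58.1 (R 4.3.3) was run on log2(FPKM + 1) for 12206 genes with a mean of at least 1 FPKM, in 1 fit of all 9 libraries with a mean per genotype and an empirical Bayes trend (6 residual and 3.68 prior degrees of freedom). Such fold changes understate the change of low genes. Tests were two-sided, with Benjamini-Hochberg adjustment over all tested genes and a threshold of 0.05. The fit was also run on simulated reads that had the same spread in all libraries and no outlying library. That run therefore does not cover a group as widely spread as WT was here. Ratios of partner genes used an exact permutation test. The 31 members, all gene lists and the naming rule were chosen with earlier results of these data known. That rule gave values in every library for called genes, the trifunctional protein, the electron transfer chain, the carnitine entry genes and the 3 largest differences per comparison. Alternatives were a pseudocount of 0.1, no filter, removal of mitochondrial and haemoglobin genes with rescaling, quantile normalization, library weights, limma-voom on recovered reads, a replicate block and leaving libraries out. Protein sequences and promoters on chromosome 18 were not used here. Some genes of the wider pathway are counted but not reported here by name.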

Additional observations from a re-analysis of the deposited data

How the results depend on the processing

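The median of the 31 genes stayed above 0 against WT in all 20 settings, main included, at 0.15 to 0.54 for CD36KO and 0.21 to 0.82 for the libraries labelled CD36CKO. The median between CD36KO and CD36CKO ran from -0.25 to 0.07, with -0.25 under scaling to the cardiomyocyte markers. Counts of calls depended on the setting, and their causes were not tested. Counts follow in the order CD36KO against WT, CD36CKO against WT, and CD36KO against CD36CKO. Among all tested genes, limma called 1527, 1547 and 553 in the main setting, 743, 753 and 169 without a filter, where more genes are tested, and 6849, 6124 and 2417 with library weights, whose estimation stopped before convergence. Removal of mitochondrial and haemoglobin genes gave 361 between CD36KO and CD36CKO, and moved the medians of all genes to 0.10, 0.22 and -0.11. Omitting the Y-expressing libraries gave 200, 412 and 48. Omitting WT 3 and CD36CKO 3 together, chosen after seeing the data, gave 3399, 3742 and 1039, and scaling to the cardiomyocyte markers, also chosen then, gave 193 and 47 for the first and last. Leaving out each library in turn gave 405 to 3203, 330 to 3950 and 29 to 1463, with the highest counts without WT 3. The share of calls that were higher moved with scaling: of tested genes, 13.3% were higher and 3.35% lower in CD36CKO after the removal, and 8.91% and 6.6% in limma-voom, beside 5.36% and 7.32%. Between CD36KO and CD36CKO 1.25% were higher and 1.72% lower after the removal, 2.13% and 2.47% in limma-voom and 0.0328% and 0.352% by the marker scaling, beside 2.61% and 1.93%.

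Of the 31 oxidation genes, 4, 3 and 0 were called in the main setting. The counts were 1, 1 and 0 without a filter, 13, 23 and 0 after the removal, 16, 19 and 1 under quantile normalization (where 7.64%, 6.64% and 3.67% of all tested genes were higher and 6.48%, 6.57% and 2.65% lower), 20, 18 and 4 with library weights, 10, 14 and 1 in limma-voom (6.04% higher and 6.01% lower in CD36KO), 0, 0 and 0 without the Y-expressing libraries, 10, 8 and 0 without WT 3 and CD36CKO 3, and 10, 22 and 0 by the marker scaling. With library weights, 27.7%, 24.9% and 10.4% of all tested genes were higher and 28.5%, 25.3% and 9.42% lower. Of the 20 CD36KO calls there, 15 were higher and 5 lower, and in CD36CKO Acot13, Acads, Echs1 and Acaa1a were lower. Leaving out each library gave 0 to 10, 0 to 10 and 0 to 3. Of the 74 wider pathway genes, 7, 16 and 1 were called in the main setting. The counts were 3, 3 and 0 without a filter, 15, 32 and 2 after the removal, 13, 18 and 2 under quantile normalization, 45, 36 and 15 with library weights, 11, 19 and 3 in limma-voom, 1, 3 and 0 without the Y-expressing libraries, 19, 27 and 8 without WT 3 and CD36CKO 3, and 4, 31 and 2 by the marker scaling. The shares of all tested genes given above for library weights apply to these counts as well, and 25 of the 45 CD36KO calls were higher and 20 lower. Leaving out each library gave 1 to 14, 2 to 25 and 0 to 10.

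Replicate numbers did not pair the libraries: over the 9 same-numbered pairs, the correlation of deviations was -0.43 to 0.14 and exceeded 0.1 in 1. With the number as a replicate block, limma called 1004, 963 and 399 genes, 5, 3 and 0 of the 31, and 5, 7 and 1 of the 74.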
